A study of Mus musculus with 31 samples.

Results

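Meiotic DNA breaks were mapped in mouse testis at and around 9 genes whose proteins make those breaks or carry out strand exchange at them. These are Spo11, Mei4 and Rec114 (break formation), Dmc1 and Brca2 (strand exchange), Meiob and Spata22 (binding of single-stranded DNA), and Psmc3ip and Mnd1 (partners of the recombinase). They were chosen by name, for the role of their proteins, from the 21887 protein-coding genes that the RefSeq gene table places on the mouse genome (GRCm38.p6, which is mm10). A hotspot, an interval in which breaks cluster, was assigned to a gene when its centre lay inside the gene or within 5000 bp of either end. Of the 414683 hotspots in the 26 deposited lists, 115 met this rule, of which 11 came from the Prdm9 knockout, 23 from inbred strains and 81 from F1 hybrids.

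The assay was DMC1 SSDS, in which single-stranded DNA bound by the DMC1 protein is pulled down with an antibody from testis and sequenced. Of the 6 inbred strains, PWD stands for PWD/PhJ, MOL for MOLF/EiJ, CAST for CAST/EiJ, 13R for B10.F-H2pb1/(13R)J, C3H for C3H/HeJ and B6 for C57Bl/6J. The 19 F1 hybrids were crosses among these 6 strains, written with the mother (f) before the father (m), so that in PWDfXB6m the mother was PWD. The knockout was B6;129P2-Prdm9<tm1Ymat>/J, a strain that lacks PRDM9 in all of its cells. With 1 library per genotype there is no replicate error, and differences between single lists were not tested. Ages and the number of testes per library are not stated in the labels. The submitters' update says that a library was taken out of the series because CASTfx13Rm was a wrong label for it, yet the same library is listed among the samples as CAST. The label CAST was taken as it stands, and 57.0% of the CAST places tested by the rule given below followed CAST in the crosses. That share cannot tell CAST from a cross of CAST with 13R. Only places found in exactly 1 inbred list were tested, which leaves out any place shared with 13R. At the genes studied here, the CAST list held none of the 7 places of 13R, 4 of which were in all 5 crosses with 13R. Whether the label is right was not tested. The lists held 14539 to 19528 hotspots in the inbred strains, 10445 to 19084 in the hybrids and 30929 in the knockout. The sequencing depth behind each list is not known from these files.

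Meiotic recombination begins when SPO11, the catalytic subunit of a topoisomerase-like enzyme, cuts both strands of DNA. REC114 and MEI4 assemble on chromosome axes and are required for that cut. The ends are then trimmed to single strands, on which BRCA2 helps to load the recombinase DMC1, while MEIOB and SPATA22 bind the single strands together with RPA. DMC1 pairs the single strand with the homologous chromosome, a reaction stimulated by the complex of PSMC3IP (also called HOP2) and MND1. PRDM9, a zinc finger protein with a methyltransferase domain, decides where most breaks fall in mice, its alleles recognize different DNA sequences, and in its absence breaks fall largely at promoters and other functional elements. What is described here is break positions in the DNA of these genes, and the lists hold no measure of the genes' expression or of their proteins' activity. DMC1 is also the protein pulled down, but the Dmc1 gene enters here only as a stretch of DNA.

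In the Prdm9 knockout, 8 of the 9 genes had a hotspot within 5000 bp, against 66.2% of all protein-coding genes under the same rule. The exception was Brca2. Strength is given as a percentile within a list, from 0 for the weakest hotspot to 100 for the strongest, ranked by the deposited score. The median of the strongest knockout hotspot over these 8 genes was at percentile 87.2, beside 73.0 over the 14494 protein-coding genes that had one. In the other 25 lists the order was the opposite, with a median of 78.7 over 7 of the 9 genes beside 82.2 over 14982 protein-coding genes. The knockout hotspots lay close to gene ends: 6 of the 9 genes had one within 1000 bp of an end, against 51.0% of all protein-coding genes. With only the 5000 strongest hotspots of the list kept, 5 of the 9 genes had a knockout hotspot, beside 22.5% of all genes, and 2 had one within 1000 bp of an end, beside 17.5%.

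**Figure D1:**
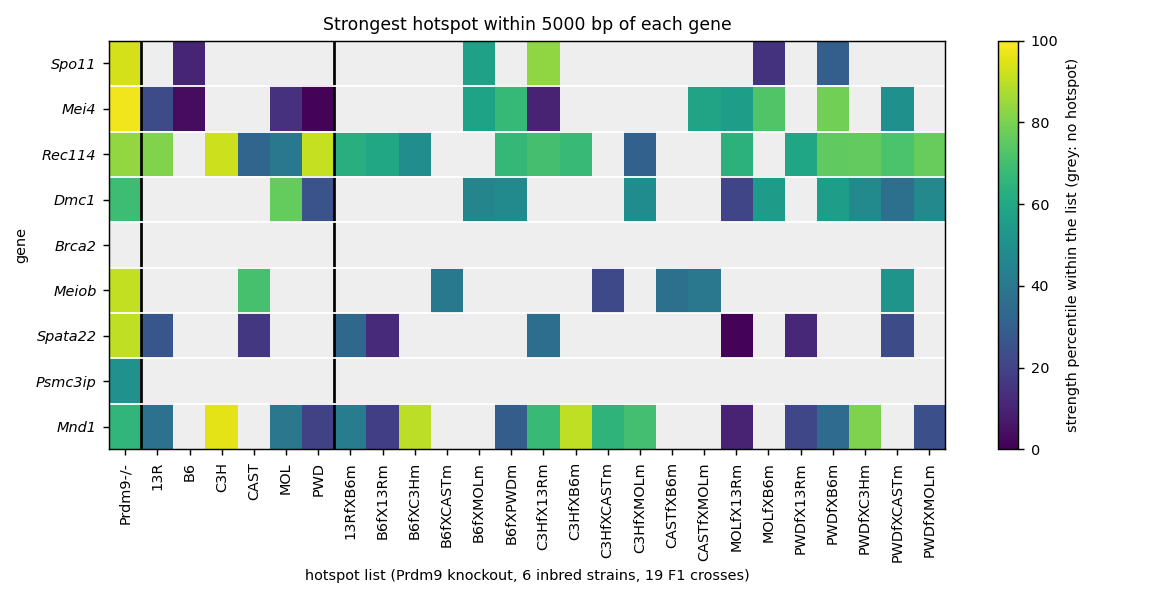
Strength percentile of the strongest hotspot within 5000 bp of each of the 9 genes (rows) in each of the 26 lists (columns, grouped as knockout, inbred and F1), coloured by percentile and grey where no hotspot met the rule. The knockout column is coloured for 8 genes, the Brca2 row is grey throughout, and Psmc3ip is coloured in the knockout column alone.

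Among the break formation genes, Mei4 had the strongest knockout hotspot, at percentile 97.8 and rank 696 of the list (chr9:81861921-81865872), with its centre 226 bp inside the start of the gene. Spo11 followed at percentile 93.4 and rank 2031 (chr2:172978769-172981360), but its hotspot was centred 2685 bp inside the lower end of the gene and 944 bp from an end of the noncoding RNA gene Gm52538. Rec114 had 4 knockout hotspots, more than any other of the 9 genes. The strongest was at percentile 83.9 (chr9:58766225-58768794), 55197 bp from the nearer gene end. The second, at percentile 75.3 (chr9:58740551-58742566), was centred 1 bp from the start that the RefSeq promoter table gives for Rec114, inside the longer span of the gene table and 81148 bp from its nearer end. The third was among the weakest of the whole list, at percentile 0.126 and rank 30891. The fourth, at percentile 24.5, lay 416 bp from the upper gene end and 659 bp from an end of the neighbouring ion channel gene Hcn4, so it counts for both genes under the rule. It is the only Rec114 hotspot within 1000 bp of a gene end. With hotspots near ends of more than 1 protein-coding gene left out, 5 of the 9 genes had a knockout hotspot within 1000 bp of an end, beside 39.8% of all genes.

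Among the strand exchange genes and their partners, Meiob and Spata22 had knockout hotspots of nearly equal rank. The Meiob hotspot (chr17:24803182-24805743) was at percentile 90.85 and rank 2831 and lay 161 bp from the lower gene end. The Spata22 hotspot (chr11:73328340-73331399) had rank 2915 and percentile 90.6, and was centred 128 bp from the start in the promoter table and 3309 bp from the gene end. Dmc1 was lower, at percentile 68.9 (chr15:79603318-79606011, 445 bp from the start), and Mnd1 close to it at percentile 66.0 (chr3:84154256-84157091, 113 bp from the start). Psmc3ip, the shortest of the genes at 3.295 kb, had the weakest of these best hotspots, at percentile 50.6 (chr11:101093912-101096245, 357 bp from the start). Of the 7 genes with an entry in the promoter table, 6 had a knockout hotspot within 1000 bp of that start, against 54.1% of the 17492 genes with an entry. Brca2 was again the exception.

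**Figure D2:**
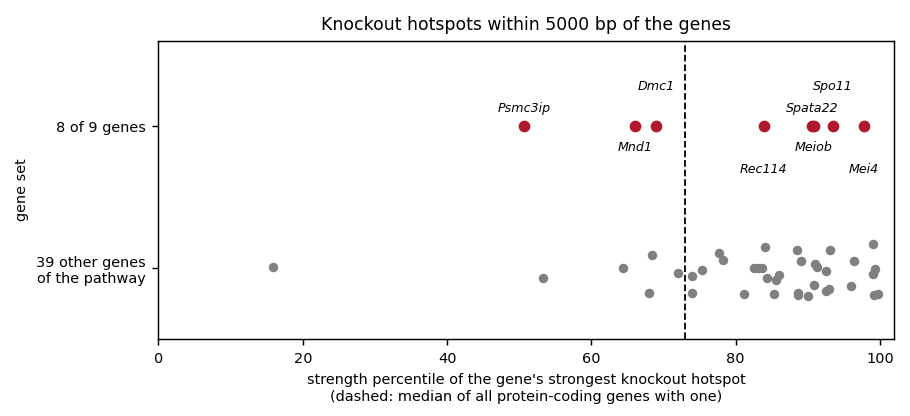
Strength percentile (x axis) of the strongest knockout hotspot within 5000 bp, 1 point per gene, for the 8 of the 9 genes that had one and for 39 other genes of the pathway, with the vertical scatter of the lower row added only to separate points. The dashed line is the median of all protein-coding genes with a knockout hotspot, 73.0, and 5 of the 8 genes lie above it.

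Promoters are shown for Mei4, whose knockout hotspot was the strongest of the set, for Rec114 and Spata22, whose hotspots sat on an internal start, and for Brca2, which had no hotspot. Each sequence runs from 250 bases before to 50 bases after the start, 5′ to 3′ on the strand of the gene, from the RefSeq promoter table on GRCm38.p6. The intervals are chr9:81863420-81863719 on the plus strand for Mei4, chr9:58741510-58741809 on the minus strand for Rec114, chr11:73329491-73329790 on the plus strand for Spata22 and chr5:150522371-150522670 on the plus strand for Brca2. Capitals mark matches, on either strand, to the motifs searched.
Mei4: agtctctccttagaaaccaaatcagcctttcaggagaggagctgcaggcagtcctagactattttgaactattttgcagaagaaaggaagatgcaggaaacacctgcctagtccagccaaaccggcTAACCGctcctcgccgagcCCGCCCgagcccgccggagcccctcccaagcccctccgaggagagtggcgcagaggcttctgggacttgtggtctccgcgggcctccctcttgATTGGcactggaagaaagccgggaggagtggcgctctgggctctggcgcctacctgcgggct
Rec114: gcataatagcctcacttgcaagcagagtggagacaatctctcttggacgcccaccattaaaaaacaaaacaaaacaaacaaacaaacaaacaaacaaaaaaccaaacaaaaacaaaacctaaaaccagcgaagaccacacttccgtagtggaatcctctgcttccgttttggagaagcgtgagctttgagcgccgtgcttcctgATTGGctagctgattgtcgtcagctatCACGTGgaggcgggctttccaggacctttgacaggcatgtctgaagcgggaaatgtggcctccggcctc
Spata22: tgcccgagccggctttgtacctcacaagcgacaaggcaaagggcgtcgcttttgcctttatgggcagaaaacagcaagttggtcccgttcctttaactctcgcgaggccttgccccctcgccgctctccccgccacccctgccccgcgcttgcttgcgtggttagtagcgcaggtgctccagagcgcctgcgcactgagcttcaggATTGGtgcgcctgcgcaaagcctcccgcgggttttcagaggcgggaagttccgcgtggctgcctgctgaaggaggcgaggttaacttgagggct
Brca2: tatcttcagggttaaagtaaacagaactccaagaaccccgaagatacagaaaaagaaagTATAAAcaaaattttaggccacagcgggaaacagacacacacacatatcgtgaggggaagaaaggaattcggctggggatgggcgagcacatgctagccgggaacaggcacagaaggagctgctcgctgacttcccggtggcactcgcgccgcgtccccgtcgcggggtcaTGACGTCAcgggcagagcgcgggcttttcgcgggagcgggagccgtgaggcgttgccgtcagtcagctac

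The motifs searched were the CCAAT box (held by 38.2% of all 21263 promoters in the table), the GC box GGGCGG (46.2%), the TATA box TATAAA (12.6%), the E-box CACGTG (7.84%), the CREB-type site TGACGTCA (2.23%), the NRF1-type core GCATGCGC (3.52%) and the MYB-type site CAACNG or TAACNG (47.6%), each on both strands. None of these overlapped another in the sequences shown. The CCAAT box was found in 4 of the 7 promoters (Mei4, Rec114, Spata22 and Psmc3ip). The promoter of Mei4 also held 1 GC box and 1 MYB-type site, and that of Rec114 held 1 E-box. Brca2 alone of the 7 held a TATA box and a CREB-type site. The number of CG dinucleotides was 16 for Mei4, 12 for Rec114, 18 for Dmc1, 25 for Brca2, 25 for Spata22, 24 for Psmc3ip and 12 for Mnd1. Over the table, promoters with a knockout hotspot within 1000 bp of the start had a median of 20 CG and those without had a median of 4. Brca2, which had no hotspot there, therefore held as many CG as Spata22, which had one, and more than Mei4, Rec114, Dmc1, Psmc3ip and Mnd1. These matches describe letters in a window and say nothing on whether a factor binds there.

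In the 25 lists from mice with PRDM9, 7 of the 9 genes had a hotspot in at least 1 inbred list, against 63.9% of all protein-coding genes, and 7 had one in at least 1 F1 list, against 61.7%. Counting only the strongest 50% of each list, 4 of 9 (44.4%) had an inbred hotspot, below the 48.1% of all genes. Psmc3ip had a hotspot in the knockout alone. Brca2 had none in any of the 26 lists, a state shared by 18.4% of protein-coding genes. Each inbred list held a hotspot at 2 to 4 of the 9 genes (median 3.5), and each F1 list at 1 to 5 (median 3). The share of all protein-coding genes with a hotspot ran from 24.8% to 30.6% over the inbred lists and from 20% to 31.8% over the F1 lists. Relative to length, the windows of the 9 genes held 13.1 hotspots per Mb in the knockout, beside 19.5 per Mb over the windows of all protein-coding genes. The median over the inbred lists was 4.18 per Mb beside 7.31 per Mb, and over the F1 lists 4.78 beside 7.61. Rec114 and Mei4, both long, made up 63.6% of the 0.837 Mb covered.

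Distance to the gene end separated the knockout from the other lists. Of the 11 knockout hotspots at the 9 genes, 6 (54.5%) were centred within 1000 bp of an end of the gene, with a median distance of 495 bp. Of the 23 inbred hotspots, 2 (8.70%) were that close, with a median of 20361 bp. Of the 81 F1 hotspots, 7 (8.64%) were, with a median of 15307 bp. Hotspots at all protein-coding genes gave 51.2%, 6.24% and 6.39% in the same order, so the 9 genes followed the pattern of genes in general. The hotspots of 1 list share a library and those of related lists share parents, and no test was made of these shares.

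**Figure D3:**
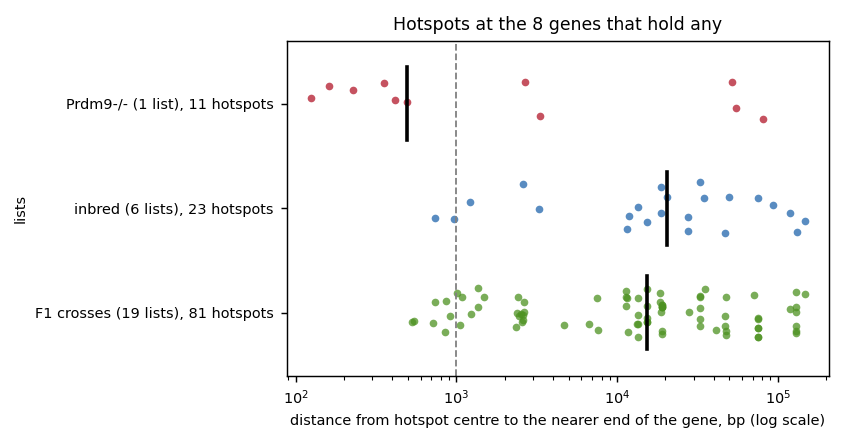
Distance from each hotspot centre to the nearer end of its gene (x axis, bp, log scale) for the 11 knockout, 23 inbred and 81 F1 hotspots, 1 point per hotspot with vertical scatter only to separate points, black bars at the medians and a dashed line at 1000 bp. Left of the dashed line lie 6 knockout, 2 inbred and 7 F1 points, and the medians are 495, 20361 and 15307 bp.

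Only 1 of the 11 knockout positions recurred in another list. The knockout hotspot of Spo11 had a hotspot centre less than 400 bp away in C3HfX13Rm and MOLfXB6m, and its interval also overlapped hotspots of B6 and PWDfXB6m. The other 10 positions had no match in any of the 25 lists. That is 9.09% of the 11, beside 7.02% of all knockout hotspots with a match in any of the 25 lists. In single lists the share of all knockout hotspots ran from 0.242% in B6fX13Rm to 3.73% in PWDfXB6m.

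**Figure D4:**
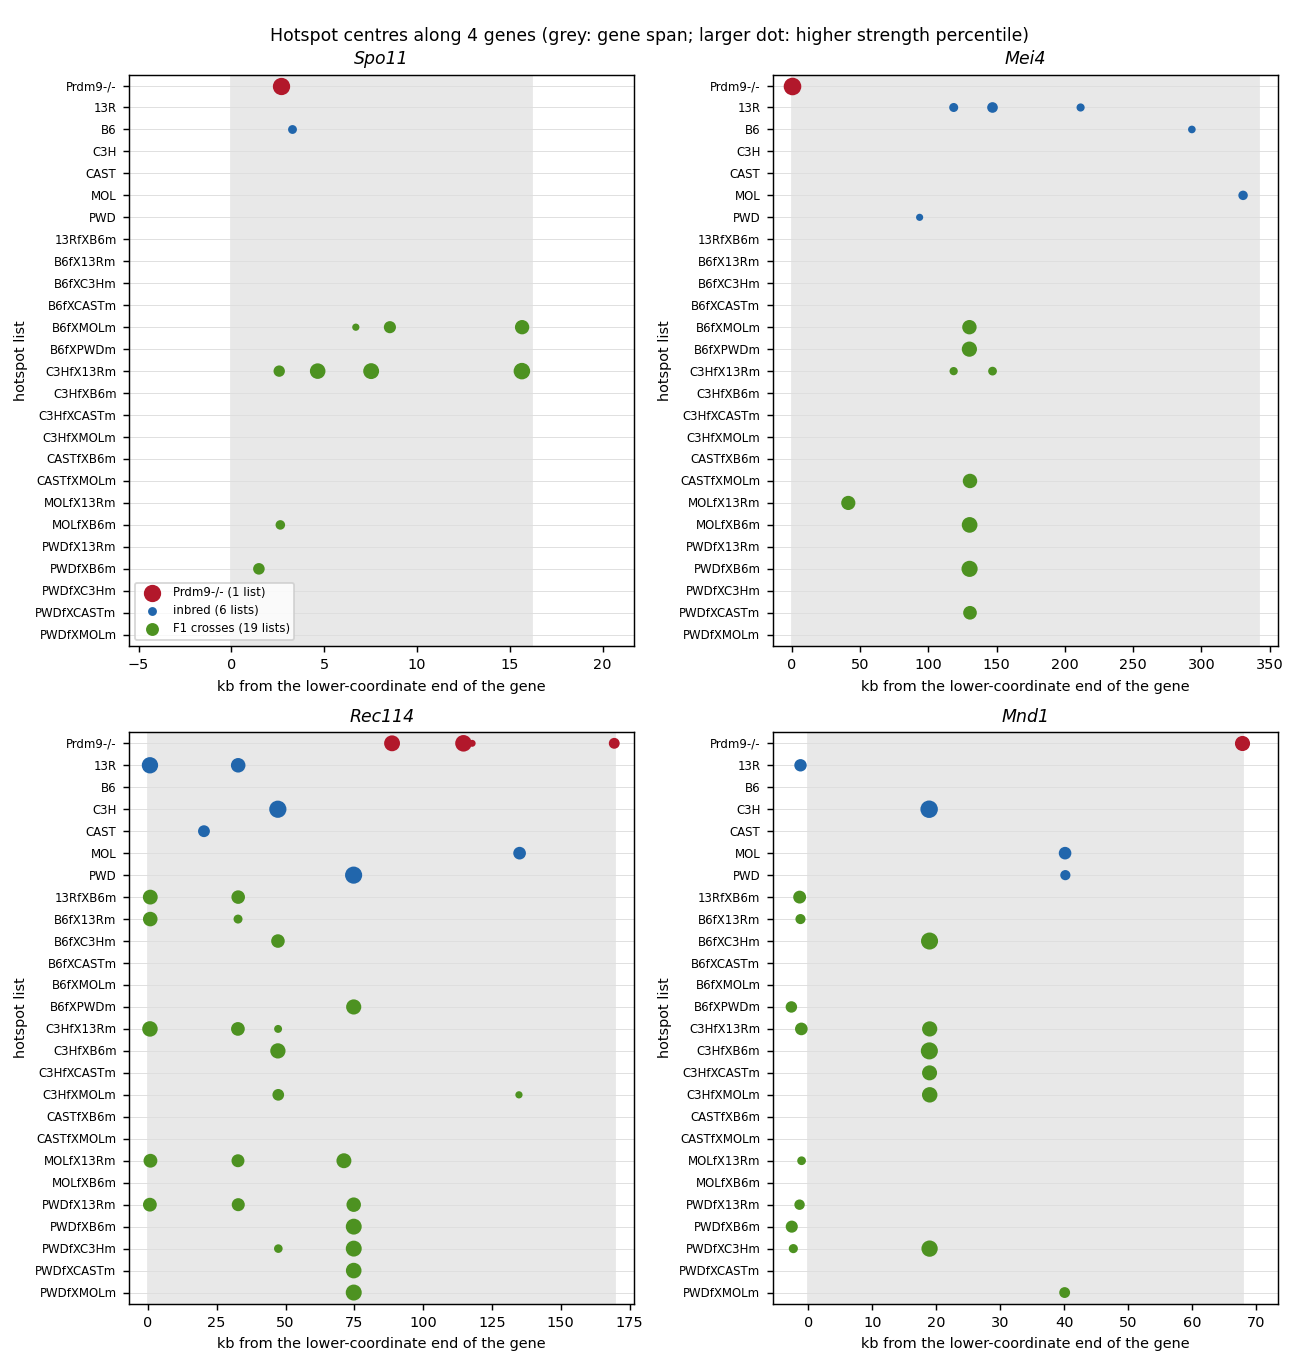
Hotspot centres (x axis, kb from the lower-coordinate end of the gene, grey for the gene's span) in each of the 26 lists (rows) for Spo11, Mei4, Rec114 and Mnd1, with knockout dots in red, inbred in blue, F1 in green, and larger dots for higher strength percentiles. Dots of a strain and its crosses line up in columns inside Rec114 and Mnd1, the column 130.2 kb into Mei4 holds 6 crosses and no inbred strain, and the Spo11 dots are spread over the gene with 4 of them in C3HfX13Rm.

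To follow positions through the crosses, hotspots of the 25 lists with centres less than 400 bp apart were joined into places. The 9 genes held 33 places, of which 21 were found in exactly 1 inbred list, 1 in 2 inbred lists and 11 in none. Each of the 21 was tested for presence in the crosses that have that strain as a parent against the crosses that do not, with a two-sided Fisher's exact test over the 19 crosses, adjusted by the Benjamini-Hochberg method over 69066 such places of the autosomes. At an adjusted p under 0.05, 11 of the 21 places followed their strain, beside 38.4% of all places tested. As a description of the places so selected, the hotspot was present in 56 of 61 crosses with the parent and in 0 of 148 without it. At the 10 places that did not pass, it was present in 4 of 63 crosses with the parent and likewise in 0 without it. Without the library labelled CAST, 10 of 18 places passed, beside 34.1% of all, and 6 of 9 genes had an inbred hotspot, beside 59.7%. The test takes crosses as independent, which those with a common parent are not. By strain, 4 of 7 13R places passed, 3 of 4 PWD, 2 of 2 C3H, 1 of 3 CAST, 1 of 3 MOL and 0 of 2 B6. The genome-wide shares were 62.3% for 13R, 25.6% for PWD, 27.6% for C3H, 57.0% for CAST, 37.4% for MOL and 14.5% for B6.

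**Figure D5:**
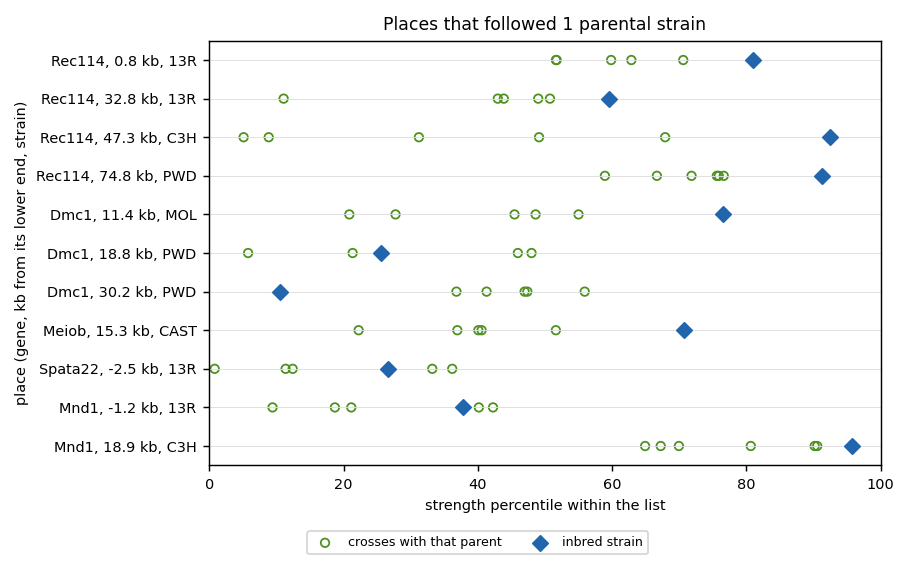
Strength percentile (x axis) at the 11 places that followed 1 parental strain, with the inbred strain as a filled diamond and each cross with that parent as an open circle. The row labels give the gene, the distance in kb of the place from the gene's lower end and the strain, and at the place in Mnd1 18.9 kb in, all 6 crosses lie between 64.9 and 90.6, below the inbred value of 95.8.

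Rec114, the axis-bound partner of MEI4, carried the most hotspots of the 9 genes, 33 in 19 lists, and 4 of the 11 places that followed a strain. The first lay 0.792 kb inside the lower end, the end opposite the start of the gene (chr9:58652414-58654964). There the hotspot was at percentile 80.9 in 13R, 70.6 in C3HfX13Rm, 62.9 in 13RfXB6m, 59.9 in B6fX13Rm, 51.7 in MOLfX13Rm and 51.6 in PWDfX13Rm. All 5 crosses with a 13R parent had it and none of the 14 others did (Fisher's exact test, p = 8.60e-05, adjusted p = 0.00036). A second 13R place 32.8 kb in (chr9:58684675-58686580) had the same presence and the same p, at percentile 59.6 in 13R, 50.8 in C3HfX13Rm, 49.0 in 13RfXB6m, 43.9 in PWDfX13Rm, 43.0 in MOLfX13Rm and 11.1 in B6fX13Rm. By percentile, B6fX13Rm stood below the other 4 crosses at this place, and its list is the shortest of all.

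The other places in Rec114 belonged to C3H and PWD. The C3H place 47.3 kb in (chr9:58698669-58701452) had the strongest hotspot of the gene, at percentile 92.5 in C3H. It was at 67.9 in C3HfXB6m, 49.1 in B6fXC3Hm, 31.2 in C3HfXMOLm, 8.85 in PWDfXC3Hm and 5.11 in C3HfX13Rm, and absent from C3HfXCASTm, so 5 of 6 crosses with C3H and 0 of 13 others had it (Fisher's exact test, adjusted p = 0.00181). The PWD place 74.8 kb in (chr9:58725762-58729421) was at percentile 91.4 in PWD and between 58.9 and 76.6 in its crosses, with a median of 73.7. It was present in 6 of 6 crosses with PWD and in 0 of 13 others (Fisher's exact test, p = 3.69e-05, adjusted p = 0.00036). The spread among crosses was therefore wide at the C3H place and narrow at the PWD place. Places of CAST (percentile 32.7) and MOL (40.2) did not pass: the first was in no cross, the second in C3HfXMOLm alone at percentile 1.45 (Fisher's exact test, adjusted p = 0.533). A further place 71.2 kb in was found in MOLfX13Rm only, at percentile 64.1.

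Mei4, the longest gene at 342.3 kb, showed the reverse, since no place there passed the test. It had 8 places outside the knockout, of which only the 6 found in an inbred list were tested. Its 6 places of an inbred strain were weak, at percentiles from 1.08 (PWD) to 22.8 (13R), and 4 of them appeared in no cross. Those at 11.4 and 22.8 in 13R recurred only in C3HfX13Rm, at 6.76 and 9.64 (Fisher's exact test, adjusted p = 0.491 for each). The strongest hotspots of the gene outside the knockout were instead at a place absent from all 6 inbred lists, 130.2 kb in (chr9:81992202-81995398). It was at percentile 78.7 in PWDfXB6m, 72.9 in MOLfXB6m, 67.1 in B6fXPWDm, 58.5 in CASTfXMOLm, 58.2 in B6fXMOLm and 50.1 in PWDfXCASTm. Those 6 are exactly the crosses of B6 or CAST with MOL or PWD, and the other 13 crosses lacked it. This grouping was seen after the values, and only 1 other autosomal place had the same presence over the 25 lists, so no test was made. A place 41.4 kb in was found in MOLfX13Rm only, at percentile 55.7.

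At Spo11, which encodes the break-making enzyme, 7 of 8 places were in no inbred list. Outside Spo11 this held for 4 of 25 places, and over the autosomes for 17.1% of 94527 places. Places were told apart by centre, and several of the 8 at Spo11 overlapped as intervals. C3HfX13Rm had 4 hotspots in this 16.2 kb gene, at percentiles 28.7, 71.3, 75.4 and 83.4, although neither C3H nor 13R had any. The one at 75.4 was 5796 bp wide (width percentile 99.5 of its list) and overlapped the one at 71.3, so the 4 are not all separate intervals. B6fXMOLm had 3, at 1.44, 35.2 and 57.4, MOLfXB6m had 1 at 14.7 and PWDfXB6m had 1 at 30.4, which spanned 9706 bp. The B6fXMOLm hotspots at 1.44 and 35.2 lay inside the 5796 bp interval of C3HfX13Rm. B6 had the only inbred hotspot, at percentile 10.3, found by the centre rule in none of the 10 crosses with B6. Its interval did overlap hotspots of C3HfX13Rm (28.7 and 71.3), MOLfXB6m (14.7) and PWDfXB6m (30.4). The strongest place (chr2:172991522-172994543) was near the upper end of the gene and was shared by C3HfX13Rm (83.4) and B6fXMOLm (57.4), which have no parent in common. No other autosomal place had this presence over the lists.

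The number of hotspots at Spo11 was compared with that at other genes within the crosses where Spo11 had the most. The Spo11 values thus picked the crosses, and the shares below are a description and no test. Of hotspots found in neither parent, C3HfX13Rm had 4 at Spo11, B6fXMOLm 3, and MOLfXB6m and PWDfXB6m 1 each, and the remaining crosses had none. Matching was by centre, and as intervals those of MOLfXB6m and PWDfXB6m overlapped the hotspot of their parent B6. C3HfX13Rm had 938 hotspots without a centre less than 400 bp away in either parental list, and 3 protein-coding genes (0.0137%) held 3 or more of them. Only Spo11 and Sox5, a gene of 953.9 kb, held 4 or more. In B6fXMOLm, 47 genes (0.215%) held 3 or more such hotspots, with a median length of 433 kb, and only Spo11 and the Y-linked Gm20918 of 0.684 kb were as short as Spo11 or shorter. With 1 library per cross, whether a second library of the same cross would hold these hotspots was not tested. The reciprocal cross MOLfXB6m had none of the 3 places that B6fXMOLm had at Spo11.

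Dmc1, the meiotic recombinase, had 3 places outside the knockout, and all 3 passed the test. The MOL place 11.4 kb in (chr15:79571111-79574824) was at percentile 76.6 in MOL and at 55.0 in MOLfXB6m, 48.6 in C3HfXMOLm, 45.5 in B6fXMOLm, 27.7 in PWDfXMOLm and 20.9 in MOLfX13Rm. It was in 5 of 6 crosses with MOL and 0 of 13 others (Fisher's exact test, adjusted p = 0.00181). The PWD place 18.8 kb in (chr15:79578618-79581642) was at 25.6 in PWD, 48.0 in PWDfXC3Hm, 46.0 in PWDfXB6m, 21.4 in B6fXPWDm and 5.77 in PWDfXCASTm, in 4 of 6 crosses with PWD and 0 of 13 others (Fisher's exact test, adjusted p = 0.0111). The PWD place 30.2 kb in (chr15:79590737-79592690) was at 10.6 in PWD and higher in every cross that held it, at 55.9 in PWDfXB6m, 47.4 in B6fXPWDm, 47.0 in PWDfXMOLm, 41.3 in PWDfXC3Hm and 36.8 in PWDfXCASTm. It was in 5 of 6 crosses with PWD and 0 of 13 others (Fisher's exact test, adjusted p = 0.00181).

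Brca2, which loads DMC1, was the one gene with no hotspot in any list. The distance from the gene to the nearest hotspot centre ran from 13.4 kb in B6fXC3Hm to 455 kb in PWDfXC3Hm, with a median of 39.8 kb over the 26 lists, and was 85.3 kb in the knockout. In B6, C3H, B6fXC3Hm, C3HfXB6m and C3HfX13Rm the nearest hotspot was 13.4 to 13.9 kb below the lower end, and in CAST and 4 CAST crosses it was 32.6 to 32.9 kb above the upper end.

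Meiob and Spata22, whose proteins bind single-stranded DNA as a pair, had few places. Meiob had 1 outside the knockout (chr17:24818650-24820613), 15.3 kb in, at percentile 70.7 in CAST, 51.6 in PWDfXCASTm, 40.6 in B6fXCASTm, 40.1 in CASTfXMOLm, 37.0 in CASTfXB6m and 22.2 in C3HfXCASTm. All 5 crosses with CAST had it and none of the 14 others did (Fisher's exact test, adjusted p = 0.00036). Spata22 had a 13R place (chr11:73322925-73325012) that lay outside the gene, 2488 bp below its lower end and inside the overlapping gene Aspa. It was at percentile 36.2 in C3HfX13Rm, 33.2 in 13RfXB6m, 26.6 in 13R, 12.4 in B6fX13Rm, 11.4 in PWDfX13Rm and 0.801 in MOLfX13Rm. All 5 crosses with 13R had it and none of the 14 others did (Fisher's exact test, adjusted p = 0.00036). A CAST place of Spata22, at 16.3 in CAST and 23.3 in PWDfXCASTm, did not pass (Fisher's exact test, adjusted p = 0.491).

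Psmc3ip and Mnd1, whose proteins form the complex that stimulates DMC1, were far apart. Psmc3ip had no hotspot outside the knockout. Mnd1 had 20 hotspots in 18 lists and the strongest hotspot of the 9 genes outside the knockout, a C3H place 18.9 kb in (chr3:84104032-84109581). It was at percentile 95.8 in C3H, 90.6 in C3HfXB6m, 90.2 in B6fXC3Hm, 80.7 in PWDfXC3Hm, 70.0 in C3HfXMOLm, 67.3 in C3HfX13Rm and 64.9 in C3HfXCASTm, and in none of the 13 other crosses (Fisher's exact test, p = 3.69e-05, adjusted p = 0.00036). A 13R place 1223 bp outside the lower end (chr3:84085597-84087828) was at 37.9 in 13R and at 9.42 to 42.3 in all 5 crosses with 13R, with a median of 21.2, and in none of the 14 others (adjusted p = 0.00036 by Fisher's exact test). Close by, a place found in no inbred list was at 34.9 in PWDfXB6m, 29.4 in B6fXPWDm and 12.1 in PWDfXC3Hm. These are 3 of the 6 crosses with PWD, and the place was absent from PWDfX13Rm, PWDfXCASTm and PWDfXMOLm. Its interval (chr3:84084467-84086276) overlapped that of the 13R place. Over the autosomes 256 places, this one included, had the same presence. The only place of 2 inbred strains was 40.1 kb into Mnd1, at 39.5 in MOL, 19.3 in PWD and 24.5 in their cross PWDfXMOLm.

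Over the places found in 1 inbred list and at least 1 cross with that strain, 48 of 60 percentiles in crosses were below that of the inbred strain, a share of 80.0% beside 82.7% over all such places. At 10 of 15 such places every cross lay below, though some of these places were in only 1 cross. Every cross lay above at the PWD place 30.2 kb into Dmc1 and at the CAST place of Spata22, the latter in 1 cross. Lists differ in length, so these ranks do not show a change in the number of breaks. Over the 5 pairs of reciprocal crosses with B6, 14 of 19 places at the 9 genes (73.7%) were in both directions, beside 77.8% of all autosomal places. B6 with 13R had 4 in each direction and all 4 in both, B6 with C3H 2, and B6 with CAST 1. B6 with PWD had 5 in B6fXPWDm, all of them also among the 6 in PWDfXB6m. B6 with MOL shared only 2, of 5 in B6fXMOLm and 3 in MOLfXB6m. All places found in 1 direction only were at Spo11: 3 in B6fXMOLm, 1 in MOLfXB6m and 1 in PWDfXB6m. No Spo11 place was in both directions, whereas every place at the other genes was.

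Other genes of the same pathway, a list of 39 that includes resection and checkpoint factors, were counted by the same rule. All 39 had a knockout hotspot within 5000 bp and 37 had one within 1000 bp of a gene end, beside the 66.2% and 51.0% of all protein-coding genes. In at least 1 inbred list 30 of 39 had a hotspot, beside 63.9% of all protein-coding genes, and in at least 1 F1 list 31, beside 61.7%. Their strongest knockout hotspots had a median percentile of 86.1. Among the highest were those at Rpa3, a subunit of the single-strand binding complex RPA (99.8), Rbbp8, which encodes the resection factor CtIP (99.3), Fignl1, an ATPase (99.1), and Atm, the kinase that limits break numbers (99.0). The lowest was at Swsap1, at 15.9. No gene of that list lacked a knockout hotspot, whereas Brca2 did.

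The 5000 bp window had no member hotspot near its edge. The centre furthest outside a gene but inside the window was 2647 bp from Mnd1, in B6fXPWDm at percentile 29.4. The nearest ones beyond the window were 6903 bp from Mnd1, in PWDfXCASTm at percentile 34.9, and 6921 bp from Spo11, in the knockout at rank 2284 and percentile 92.6.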

How the data were processed

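The deposited hotspot lists of 26 genotypes, 1 anti-DMC1 library each, were used; the 5 input libraries were not used here. Each list gives chromosome, start, end and a strength score per hotspot, made by the authors, with normalization, filters and pooling not stated by any label; 104 scores were below 0. The submitters' processing notes name CASAVA 1.8, MACS2 2.0.10 and mm10, with no role. Depth per library is unknown, so no counting error can be given. List starts were read as 0-based and are printed 1-based.

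Genes were placed by the RefSeq table of GRCm38.p6. All 9 genes are named, each with its strongest hotspot in the knockout and in the other lists by percentile; of 39 other pathway genes, the 5 strongest in the knockout were to be named, of which 1 is not reported here. Members, lists and tests were chosen with earlier results of these data known. Places were tested with Fisher's exact test (scipy 1.17.1, Python 3.11.15) after the code was tested on simulated data. Alternatives were windows of 1000 and 10000 bp, any overlap, the strongest 5000 or 50% of each list, other end and joining distances, and 1 cross left out.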

Additional observations from a re-analysis of the deposited data

Results flagged for a closer look

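At the 13R place 32.8 kb into Rec114, the cross B6fX13Rm had a strength percentile of 11.1, far from the other 4 crosses with a 13R parent, which lay between 43.0 and 50.8. Its gap to the nearest cross was 0.804 of the range of the 5 values, above Dixon's 95% critical value for 5 samples. B6fX13Rm also had the shortest list, with 10445 hotspots. Its rank at this place was 9290, within the range of 6815 to 9470 over the other 4 crosses. Whether the list length bears on the percentile was not tested. This was 1 of 14 groups of values examined in this way, and chance flags about 1 in 20.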

How the results depend on the processing

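Of the counts that answer a comparison, 24 values under an alternative stayed within 1.5 times the reported count and 6 moved further. All 6 came from keeping only the strongest hotspots. With the strongest 5000 of each list, 5 of the 9 genes had a knockout hotspot (22.5% of all genes), 4 an inbred one (38.3%), 4 an F1 one (37.4%) and 2 a knockout hotspot within 1000 bp of a gene end (17.5%). With the strongest 50% of each list, 4 had an inbred hotspot (44.4%, below the 48.1% of all genes, where the full lists gave 77.8% and 63.9%) and 3 of 7 places tested followed a strain (34.3% of all places). That count was 10 with centres joined under 200 bp, 11 under 1000 bp and 11 without PWDfXB6m. With a window of 1000 bp, hotspots at Spata22 were found in 3 lists in place of 9 and at Mnd1 in 11 in place of 18. The distance to a start in the promoter table, leaving out hotspots near ends of more than 1 gene, and leaving out the library labelled CAST were added as alternatives after the data were seen. No paired analysis was possible because each genotype had 1 library and the labels carry no replicate numbers. The unknown depth of the lists limits every statement that a hotspot was missing from one.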

Other observations

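Genes whose presence over the 26 lists was most like that of each gene were looked up, with the Jaccard index (lists with both over lists with either) as the measure. Rec114 was most like Tfdp2 (0.947) and Arhgap17 (0.905), Mnd1 like Lgr5 (0.947) and Limd1 (0.895), Dmc1 like Cystm1 and Iqcb1 (0.923 each), Mei4 like Lin28b and Adam23 (0.765 each) and Spo11 like Zfp566 and Manbal (0.714 each). Spata22 and Aspa had identical presence, since Aspa overlaps Spata22 and both take the same hotspots under the rule. Meiob shared its presence with 210 genes (0.960%), Psmc3ip with 2871 (13.1%) and Brca2 with 4032 (18.4%), and no gene had the presence of Spo11, Mei4, Rec114, Dmc1 or Mnd1.

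Some strong hotspots lay just past the window. A B6 hotspot 8009 bp from Rec114 was at percentile 85.0 in B6, 75.5 in C3HfXB6m, 64.5 in B6fXC3Hm and 12.1 in MOLfXB6m. A CAST hotspot near Mnd1 was at percentile 70.1 in CAST, 39.7 in CASTfXMOLm, 36.5 in B6fXCASTm, 34.9 in PWDfXCASTm and 28.3 in CASTfXB6m.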
